A study of Mus musculus with 24 samples.

Results

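The 8 genes described here are the ferritin chains Fth1 and Ftl1, the iron hormone Hamp, and Hmox1, Nqo1, Osgin1, Gclc and Txnrd1, which are targets of the transcription factor NRF2. They were chosen by symbol, as genes of iron storage, iron regulation and antioxidant defence, from the 24421 entries of a gene count table of mouse liver RNA. All 8 had counts, and 6 passed the filter on low counts that leaves 4198 genes for testing; Hmox1 and Nqo1 did not.

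The livers came from male C57Bl/6J mice fed a control diet with 13% fat (CD) or a Western diet with 42% fat (WD). The mice breathed air or vinyl chloride (VC, an industrial gas that the liver oxidises) at about 0.85 ± 0.1 ppm for 6 hours a day, 5 days a week, during the first 12 weeks. The m12 livers were taken after 9 further months of housing, for a feeding time of 12 months, and the groups are m12_WD+VC, m12_WD, m12_CD+VC and m12_CD. The w12 livers were taken right after the 12 weeks of exposure, and the groups are w12_WD+VC, w12_WD, w12_CD+VC and w12_CD. Each of the 8 groups has 3 libraries, all mice were fasted for 4 hours, and the labels give neither the age of the mice nor whether each library is a mouse of its own, so p-values measure the spread between libraries.

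Ferritin is a hollow shell of heavy and light chains that stores iron in the cell in a harmless form. Translation of both chains is held back by iron regulatory proteins, which bind a hairpin in the leader of the mRNA when iron is scarce, while transcription of both chains is raised by NRF2. Hepcidin, the product of Hamp, is made by hepatocytes when iron stores or inflammation are high, and it blocks the release of iron into blood. NRF2 is held by KEAP1 and degraded until oxidants or electrophiles free it, and it then binds antioxidant response elements near genes of glutathione synthesis, thioredoxin reduction and heme breakdown.

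The hairpin stretch of each ferritin chain is shown because it is the element through which iron acts on both mRNAs, at a step that mRNA counts do not measure. Both stretches lie in exon 1 before the start codon, in the GENCODE M21 transcripts Fth1-201 and Ftl1-201 of GRCm38, and capitals mark the loop, CAGTGN. The first lies at chr19:9982732-9982761 on the plus strand and the second at chr7:45459778-45459807 on the minus strand.
Fth1: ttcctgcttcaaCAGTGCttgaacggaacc
Ftl1: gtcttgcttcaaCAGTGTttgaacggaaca
The pair was identical at 26 of 30 bases.

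Promoter windows of 250 bases before to 50 bases after a start (RefSeq, GRCm38.p6) were searched for the antioxidant response element core TGACNNNGC on both strands. Of the 8 genes, 6 had such a window, 9 windows in all. Hmox1 and Gclc had none, so their promoters were not searched. The core was found in 1 of the 9, a Txnrd1 window, 92 to 84 bases before the start on the opposite strand, and in 12.39% of all 32851 windows. Elements farther from a start were not searched.

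Of the 24 libraries, 23 held 126160 to 962493 counts. The w12_WD library 3 held 607, with 0 counts for all 8 genes; it stays in the fits, but levels and spreads are given over the other 23, so w12_WD has 2 values. In these 23, a count of 0 allows a level of up to 3 counts, or 3.12 to 23.8 CPM (counts scaled to a library total of 1e+06) depending on the library. Hepatocyte markers were abundant in these liver libraries, with summed levels of 3077 to 35835 CPM, although Ass1 was at 0 throughout. The hemoglobin entries Hba-a1, Hba-a2, Hbb-bs and Hbb-bt were also at 0 in every library. Many entries of the table share exons with a gene on the other strand and hold most counts, and how the counting treated strand is not stated in what was used here. Among the 8 genes, only Ftl1 has such an overlap, of 355 bases with Gm10252, which has no entry in the table. Entries with no such overlap held 11.4% to 31.5% of a library's counts. That share was 20.5% ± 2.41 in m12_WD+VC, 25.8% ± 3.91 in m12_WD and 26.5% ± 4.64 in m12_CD+VC, against 15.5% ± 3.59 in m12_CD (SD, n = 3 each), and 15.0% to 17.0% in the w12 groups.

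Per kilobase of exon, Hamp averaged 198 CPM, Ftl1 174, Fth1 97.9, Gclc 18.7, Osgin1 11.9, Txnrd1 5.68, Hmox1 3.41 and Nqo1 0.456 over the 23 libraries. The length joined all annotated exons of a gene, 410 bases for Hamp, 1340 for Ftl1 and 3469 for Fth1. The order of these 3 depends on that choice. The ferritin chains and hepcidin were thus the most abundant of the 8 mRNAs, and Nqo1, a quinone reductase, was near the floor. In total counts, Fth1 had 3254, Ftl1 2225, Hamp 692, Gclc 594, Txnrd1 332, Osgin1 265, Hmox1 63 and Nqo1 6. The Hamp count may include reads of its near-identical neighbour Hamp2, whose own entry held 42 counts.

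At 12 months, livers of the Western diet group, of the vinyl chloride group and of the combined group all held more Fth1 mRNA than control livers, and the first 2 also held more Ftl1. Osgin1 was higher in all 3. Of these calls, only those of the ferritins in the Western diet group held in every setting. The Osgin1 call of that group was lost in 10 of 15 settings. In the vinyl chloride group the call was lost in 7 of 15 settings for Fth1, 9 of 14 for Ftl1 and 8 of 15 for Osgin1. In the combined group it was lost in 7 of 15 for Fth1 and 5 of 15 for Osgin1. Gclc, the catalytic subunit of the first enzyme of glutathione synthesis, was highest in the vinyl chloride group, just short of the threshold. In the main edgeR fit, Hamp and Txnrd1 passed the test in no comparison, and Hamp did so in some alternative settings, edgeR fits among them. None of the 6 tested genes passed it at 12 weeks, and the m12_CD and w12_CD livers did not differ detectably in any of them. The comparisons of m12_WD, m12_CD+VC and m12_WD+VC with m12_CD share the same 3 control libraries, and so are not independent.

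Fth1, on chromosome 19 (GRCm38, 9980598 to 9985098, plus strand), encodes the heavy chain, which oxidises iron for storage. It stood at 403, 594 and 464 CPM in m12_WD+VC, at 864, 953 and 553 CPM in m12_WD, at 552, 650 and 390 CPM in m12_CD+VC, and at 57.2, 249 and 228 CPM in m12_CD. Every library of the first 3 groups lay above every m12_CD library, and the m12_WD libraries overlapped with both VC groups. Such a gap was common. Of all tested genes, 28.9% lay wholly above m12_CD in m12_WD, 25.1% in m12_CD+VC and 23.9% in m12_WD+VC. In the w12 groups Fth1 ranged from 80.0 to 243 CPM, and these ranges overlapped with m12_CD. In the order of the 8 group means, only the step between m12_WD+VC at 487 CPM and w12_WD+VC at 215 CPM separated neighbours whose libraries did not overlap. Between these groups, 18.4% of all tested genes lay wholly above w12_WD+VC.

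Ftl1, on chromosome 7 (45457944 to 45459884, minus strand), encodes the light chain, which helps to form the iron core. It stood at 290, 321 and 228 CPM in m12_WD+VC, at 476, 739 and 414 CPM in m12_WD, at 512, 484 and 276 CPM in m12_CD+VC, and at 48.2, 176 and 197 CPM in m12_CD. The 3 exposed or Western diet groups again lay wholly above m12_CD, and all m12_WD+VC libraries lay below all m12_WD libraries. The shares of tested genes above m12_CD are those given for Fth1, and 8.98% lay wholly below m12_WD in m12_WD+VC. In the w12 groups Ftl1 ranged from 36.9 to 178 CPM. The first m12_CD library was the lowest at 12 months for both chains.

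**Figure D1:**
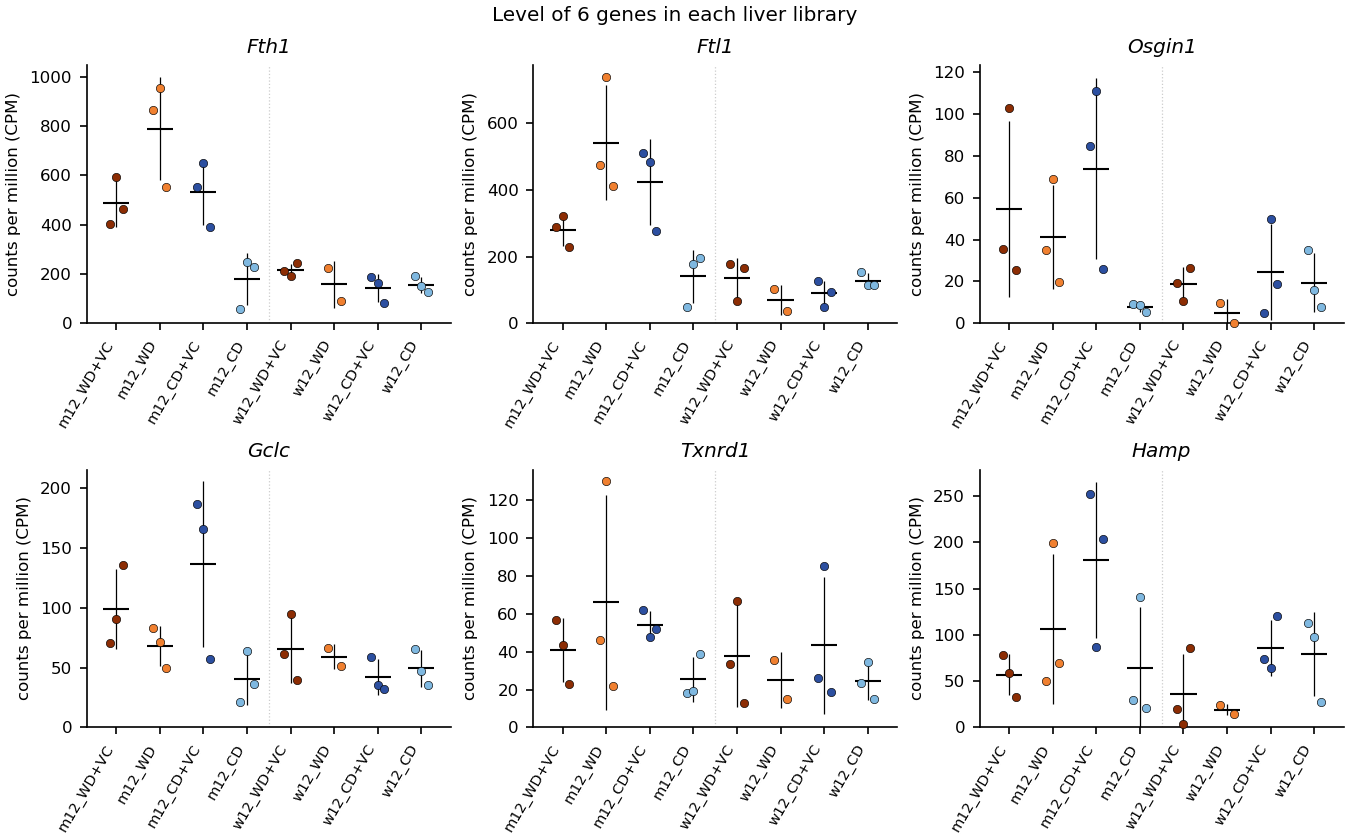
Level of 6 of the genes in each library (points, in CPM, linear axes) by group, with the group mean (bar) and SD (vertical line, drawn no lower than 0); w12_WD has 2 points because the library of 607 counts is left out. Fth1 in m12_CD lies between 57.2 and 249 CPM, below every library of the other 3 m12 groups, and the dotted line parts the m12 groups from the w12 groups. In each of these 3 comparisons, 23.9% to 28.9% of all tested genes lay wholly above m12_CD.

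The levels of the ferritin chains were correlated across libraries, while their ratio varied between libraries. The ratio of Ftl1 to Fth1 counts, which does not depend on library size or scaling, was 0.695 ± 0.205 over 23 libraries (SD), with a range of 0.304 to 1.17. It was 0.584 ± 0.120 in m12_WD+VC, 0.691 ± 0.123 in m12_WD, 0.793 ± 0.119 in m12_CD+VC and 0.805 ± 0.0835 in m12_CD (n = 3 each). In the w12 groups it was 0.623 ± 0.249 in w12_WD+VC, 0.435 as the mean of 2 libraries in w12_WD, 0.714 ± 0.433 in w12_CD+VC and 0.829 ± 0.0857 in w12_CD. At 12 months the group means lay between 0.584 and 0.805. Across libraries, the log2 levels of the chains had a Pearson r of 0.893 (n = 23, with shared library depth, composition and groups), the highest of the 15 pairs among the 6 tested genes. Genes outside the 6 reached higher values, such as Aldh2 with Fth1 (0.927) and Myl6 with Ftl1 (0.932).

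**Figure D2:**
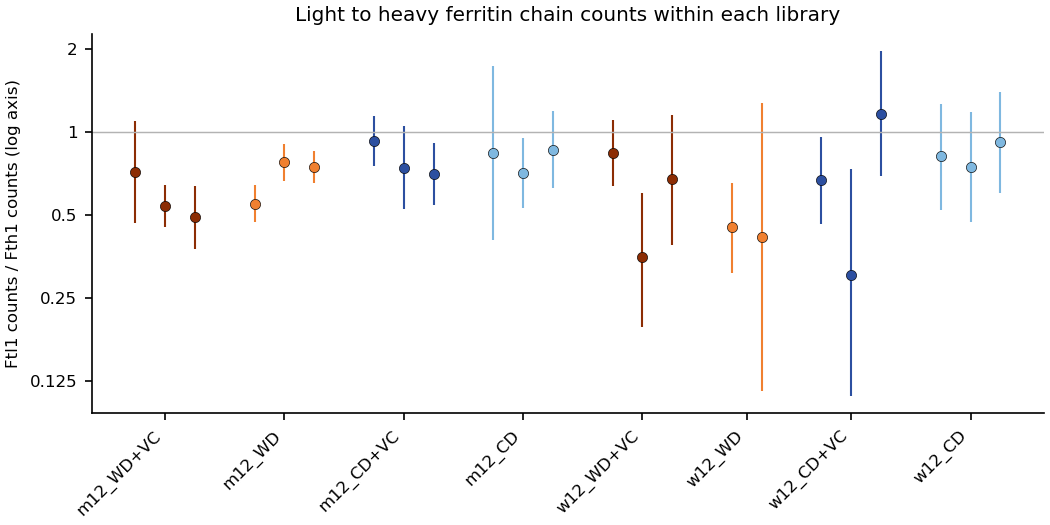
Ratio of Ftl1 to Fth1 counts in each of 23 libraries (points, log axis) by group, with exact 95% intervals that cover counting error only. The ratio stays between 0.304 and 1.17, and the widest intervals belong to the w12 libraries with few counts.

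Western diet without vinyl chloride was compared over m12_WD and m12_CD. Of 6 tested genes, 3 were higher at an edgeR adjusted p under 0.05, where 24.5% of the 4198 tested genes were called, 13.4% as higher. Fth1 was 3.51-fold higher (log2 1.81 ± 0.335 SE, edgeR adjusted p = 0.000302) and Ftl1 3.02-fold higher (1.59 ± 0.364, edgeR adjusted p = 0.00205). Both ferritin calls held in every setting in which they were tested and without any 1 library, with log2 changes of 1.40 to 2.20 for Fth1 and 1.20 to 1.99 for Ftl1. The 6 genes had a median log2 change of 1.26, against 0.11 over all tested genes, 0.48 over those without an overlap and -0.16 over those with one.

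Osgin1 encodes an oxidative stress induced growth inhibitor and lies on chromosome 8 (119434124 to 119446256, plus strand). It stood at 35.2, 68.8 and 19.7 CPM in m12_WD and at 9.03, 8.50 and 5.17 CPM in m12_CD, where it rests on 3, 4 and 2 counts. The libraries did not overlap, as for 28.9% of all tested genes in this direction, and Osgin1 was 3.93-fold higher (log2 1.98 ± 0.754 SE, edgeR adjusted p = 0.0387). That call was lost in 10 of 15 settings, and the adjusted p ranged from 0.0189 to 0.186, the highest without the second m12_WD library. The other 3 tested genes had log2 changes of 0.32 for Hamp, 0.37 for Gclc and 0.93 for Txnrd1. Their 95% intervals, as folds, reached 0.564 to 2.77 for Hamp, 0.722 to 2.33 for Gclc and 0.867 to 4.21 for Txnrd1.

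Vinyl chloride on the control diet was compared over m12_CD+VC and m12_CD, 9 months after exposure had ended. Again 3 of the 6 were higher, where 5.22% of all tested genes were called and 4.1% as higher. Fth1 was 2.35-fold higher (log2 1.23 ± 0.341 SE, edgeR adjusted p = 0.0343) and Ftl1 2.37-fold higher (1.24 ± 0.371, edgeR adjusted p = 0.0476). Osgin1 stood at 84.9, 111 and 26.02 CPM in m12_CD+VC, above all 3 m12_CD libraries, and was 6.92-fold higher (2.79 ± 0.762, edgeR adjusted p = 0.0227). In this comparison 25.1% of all tested genes lay wholly above m12_CD.

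Over all tested genes the median log2 change was 0.07, with 0.58 for entries without an overlap and -0.30 for those with one. Without the first m12_CD library the adjusted p was 0.197 for Fth1, 0.232 for Ftl1 and 0.0894 for Osgin1, and without the second m12_CD+VC library it was 0.157, 0.167 and 0.128, in the same order. When entries with and without an opposite-strand overlap were each scaled by themselves, the Fth1 change was no longer called (edgeR adjusted p = 0.15), nor was that of Osgin1 (0.0607).

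Gclc, on chromosome 9 (77754535 to 77794485, plus strand), stood at 187, 166 and 57.3 CPM in m12_CD+VC, and at 21.1, 63.8 and 36.2 CPM in m12_CD. Library 3 of m12_CD+VC lay within the m12_CD range. The log2 change was 1.35 ± 0.420 with an edgeR adjusted p of 0.0502, just above the threshold, and 0.0253 without that library. DESeq2 (0.0267) and RLE scaling (0.0127) called it, as did the fit without the second m12_CD library (0.0373), and over all settings the adjusted p reached 0.245. Hamp had 252, 87.2 and 203 CPM in m12_CD+VC, and 30.1, 140 and 20.7 CPM in m12_CD, so the groups overlapped through 1 control library. Its log2 change was 1.23 ± 0.570 (edgeR adjusted p = 0.153, and 0.0342 without the second m12_CD library).

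Txnrd1, a selenoprotein on chromosome 10 (82833951 to 82897712, plus strand) that reduces thioredoxin, stood at 62.3, 47.6 and 52.0 CPM in m12_CD+VC, and at 18.1, 19.1 and 38.8 CPM in m12_CD. The libraries did not overlap, as for 25.1% of all tested genes in this direction. The log2 change of 0.77 ± 0.593 did not pass (edgeR adjusted p = 0.386), and its 95% interval reached 0.740-fold to 3.94-fold.

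The combined treatment was compared over m12_WD+VC and m12_CD. Here 2 of the 6 were higher, where 6% of all tested genes were called and 3.14% as higher. Fth1 was 2.27-fold higher (log2 1.18 ± 0.340 SE, edgeR adjusted p = 0.0339), and the call was lost without the second m12_WD+VC library (0.206) or the first m12_CD library (0.223). Osgin1 stood at 35.3, 103 and 25.7 CPM in m12_WD+VC and was 5.93-fold higher (2.57 ± 0.762, edgeR adjusted p = 0.0251), with an adjusted p of 0.394 and a log2 change of 1.60 without the second m12_WD+VC library, which was the highest. The Osgin1 call was lost in 5 of 15 settings, also with DESeq2 (0.0636) and without any 1 m12_CD library (0.0572, 0.0742 and 0.0990). Gclc had 70.7, 90.5 and 136 CPM in m12_WD+VC, above all m12_CD libraries, at a log2 change of 1.02 ± 0.421 (edgeR adjusted p = 0.152). In this comparison 23.9% of all tested genes lay wholly above m12_CD.

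In the groups not yet given, Gclc stood at 83.3, 71.2 and 49.9 CPM in m12_WD and at 32.0 to 95.1 CPM in the w12 libraries. Txnrd1 stood at 56.6, 43.7 and 23.1 CPM in m12_WD+VC and at 46.3, 130 and 21.8 CPM in m12_WD, where 1 library held most of the level. Hamp stood at 49.96, 199 and 69.6 CPM in m12_WD, overlapping with m12_CD. In the w12 libraries Txnrd1 ranged from 13.2 to 85.2 CPM and Osgin1 from 0 to 49.7 CPM. In the order of the 8 group means, no neighbours were free of overlap for Gclc, Txnrd1 or Hamp, and 1 pair was for Osgin1, w12_WD+VC above m12_CD. The share of all tested genes with that gap was not counted. For Ftl1 the pair was m12_WD+VC above m12_CD, a gap found for 23.9% of all tested genes.

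**Figure D3:**
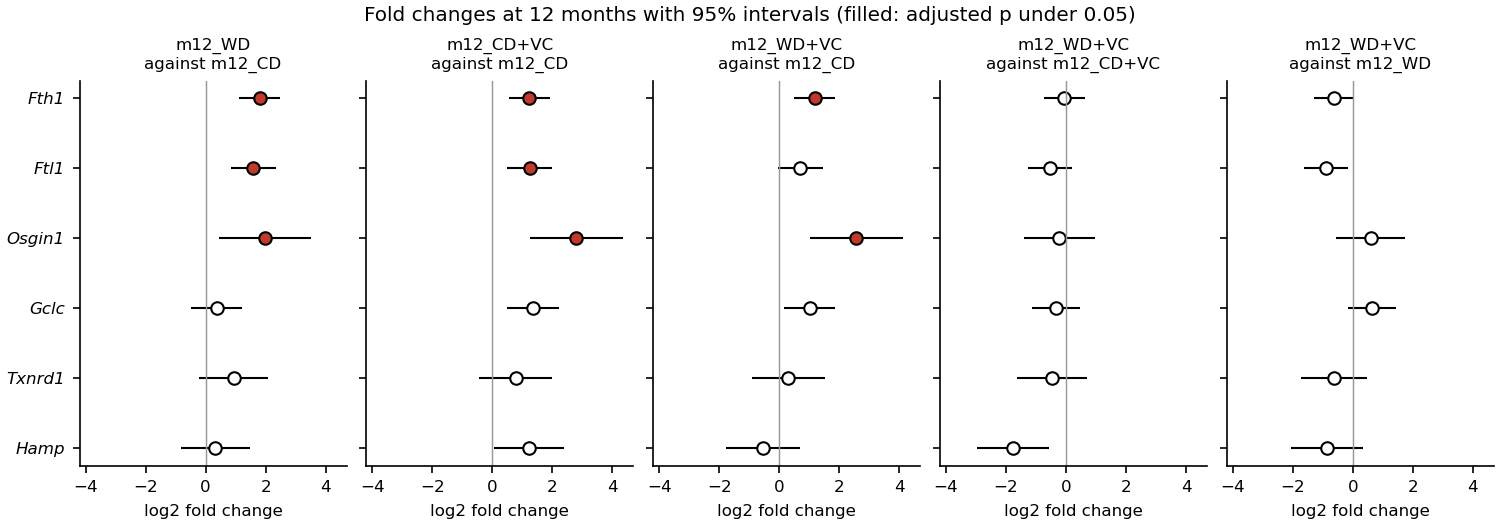
Log2 fold change of the 6 tested genes in 5 comparisons at 12 months, with the edgeR estimate (circle) and its 95% interval (line); filled circles have an adjusted p under 0.05. Fth1 is filled in the 3 comparisons with m12_CD, at 1.81, 1.23 and 1.18, and no circle is filled in the 2 comparisons within the Western diet or within vinyl chloride.

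Between the treated groups no gene of the 6 was called. For m12_WD+VC against m12_CD+VC, 1.81% of all tested genes were called, and for m12_WD+VC against m12_WD, 0.572%. Counts of 0 among the 6 also came from DESeq2 in both comparisons, while limma-voom called Hamp in the first. Hamp had 77.8, 59.3 and 33.4 CPM in m12_WD+VC, all below the 252, 87.2 and 203 CPM of m12_CD+VC, at a log2 difference of -1.77 ± 0.591 (edgeR adjusted p = 0.121, and 0.0103 to 0.427 over the alternatives). In that comparison 12.5% of all tested genes lay wholly below m12_CD+VC. Ftl1 in m12_WD+VC was lower than in m12_WD by a log2 difference of -0.89 ± 0.358 without passing the test (edgeR adjusted p = 0.370).

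On the log2 scale, the Western diet effect on the ferritins was lower with vinyl chloride than without it. The diet difference with VC, minus the diet difference without it, was -1.86 ± 0.472 for Fth1 (edgeR adjusted p = 0.0149) and -2.13 ± 0.516 for Ftl1 (edgeR adjusted p = 0.0128). These were 2 of the 6 tested genes, where 9.81% of all tested genes were called, 6.48% as negative. Both calls were lost without the third m12_WD+VC library, at 0.0525 for Fth1 and 0.0521 for Ftl1, and that of Fth1 also with overlap classes scaled apart (0.0791). Hamp at -2.09 (0.088) and Osgin1 at -2.20 (0.108) had differences of like size that did not pass, although without the second m12_CD library that of Hamp was -3.32 (0.0171). Among the m12 groups, the share of counts in entries without an overlap was lowest in m12_CD as well, and its part in these differences was not tested.

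Hmox1, heme oxygenase 1, frees iron from heme and lies on chromosome 8 (75093621 to 75100589, plus strand). It had 63 counts in 13 libraries. At 12 months the 3 libraries held 0, 12 and 0 counts in m12_WD+VC, 2, 8 and 14 in m12_WD, 6, 0 and 0 in m12_CD+VC, and 0, 0 and 3 in m12_CD. Relative to library totals, the sum of 24 counts in m12_WD was 4.98 times the sum of 3 in m12_CD (95% counting interval 1.51 to 25.8). In the combined group and the VC group all counts came from 1 library each, so these sums do not stand for 3 libraries.

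Right after exposure, all 3 w12_WD+VC libraries had Hmox1, at 6, 4 and 2 counts or 10.6, 14.1 and 13.2 CPM, against 0, 0 and 1 counts in w12_CD+VC. The ratio of the sums was 11.2 with a counting interval of 1.66 to 479. It was 3.33 (0.742 to 30.7) against w12_WD, with 2 counts, and 3.89 (1.05 to 21.5) against w12_CD, with 3 counts. Nqo1, on chromosome 8 (107388225 to 107403206, minus strand), had 6 counts in 4 libraries, 3 of them in the first m12_CD+VC library, and no difference was detectable at this depth.

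At 12 weeks none of the 6 tested genes was called in any comparison with edgeR, DESeq2 or limma-voom. The background was low as well, with 0.0238% of all tested genes called for diet in air, 0.524% for diet with VC, 0.786% for both against neither, 0.0238% for the interaction of diet and VC, and 0% for VC on either diet. For VC, 170 genes on the control diet and 235 on the Western diet had an unadjusted p under 0.05 with edgeR, DESeq2 called 0 on either diet, and limma-voom called 0 on the control diet and 3 on the Western diet. Among the 6, the pairs with an unadjusted p under 0.05 were Hamp in 3 comparisons and Ftl1 in the interaction of diet and VC (log2 1.37, edgeR adjusted p = 0.9998).

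Hamp, on chromosome 7 (30942368 to 30944032, minus strand), had 19.4, 3.52 and 85.5 CPM in w12_WD+VC, 23.8 and 14.8 CPM in w12_WD, 73.6, 63.9 and 120 CPM in w12_CD+VC, and 112, 97.9 and 27.6 CPM in w12_CD. The w12_WD libraries lay below both control diet groups, and 1 w12_WD+VC library lay among them. With only 2 w12_WD values, 10.6% of all tested genes lay wholly below w12_CD, and the share below w12_CD+VC was not counted. The log2 differences were -1.91 ± 0.855 for w12_WD against w12_CD (edgeR adjusted p = 0.844), -1.62 ± 0.674 for w12_WD+VC against w12_CD+VC (0.384) and -1.39 ± 0.674 for w12_WD+VC against w12_CD (0.357). None of the 3 passed in any alternative.

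Time was compared between m12 and w12 livers of the same diet and exposure, which differ in the age of the mice, the length of feeding and the time since exposure; these cannot be told apart. In control livers, m12_CD against w12_CD, none of the 6 was called, nor by DESeq2 or limma-voom, where 1.62% of all tested genes were, and no gene of the 6 had an unadjusted p under 0.05. After VC on the control diet, m12_CD+VC against w12_CD+VC, 3 of the 6 were higher, where 6.38% of all tested genes were called and 3.24% as higher. Fth1 stood at 552, 650 and 390 CPM in m12_CD+VC, against 187, 163 and 80.0 CPM in w12_CD+VC, a log2 change of 1.68 ± 0.352 (edgeR adjusted p = 0.00742, and 0.0547 without the third w12_CD+VC library). Ftl1 rose by 1.93 ± 0.391 (edgeR adjusted p = 0.00534), a call kept in every alternative. Gclc rose by 1.39 ± 0.433 (edgeR adjusted p = 0.0479), a call lost in 12 of 15 alternatives, with adjusted p up to 0.251.

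On the Western diet in air, m12_WD against w12_WD, both ferritins were higher, 2 of 6 where 14.6% of all tested genes were called and 7.74% as higher. Fth1 was 4.24-fold higher (log2 2.08 ± 0.392 SE, edgeR adjusted p = 0.000613) and Ftl1 6.23-fold higher (2.64 ± 0.458, edgeR adjusted p = 0.000224), and both calls held in every alternative. Hamp at 2.104 ± 0.836 (edgeR adjusted p = 0.0722) did not pass, but was called without an expression filter (0.0349) and when fitted on the w12_WD and m12_WD libraries only (0.0312). Osgin1 at 2.31 (edgeR adjusted p = 0.0831) did not pass, but was called without the third m12_WD library (0.0466). The fit includes the w12_WD library of 607 counts; without it the ferritin calls held.

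On the Western diet with VC, m12_WD+VC against w12_WD+VC, none of the 6 was called with edgeR or DESeq2, where 0.786% of all tested genes were. Both ferritins and Osgin1 had an unadjusted p under 0.05, with log2 changes of 1.002, 0.82 and 1.44 and edgeR adjusted p of 0.176, 0.364 and 0.346, and limma-voom called both ferritins. No library of m12_WD+VC overlapped with w12_WD+VC for either ferritin chain, and 18.4% of all tested genes lay wholly above w12_WD+VC.

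The diet difference in air was larger at 12 months than at 12 weeks for both ferritins, by a log2 value of 1.78 ± 0.527 for Fth1 (edgeR adjusted p = 0.0367) and 2.40 ± 0.599 for Ftl1 (edgeR adjusted p = 0.0147), where 6.67% of all tested genes were called and 3.41% as positive. Both calls were lost without the second w12_WD library (0.222 and 0.127). For Ftl1 this was the only loss among 20 settings, while the Fth1 call was lost in 10 of 21, also with overlap classes scaled apart (0.0728), without an expression filter (0.119), with the compared groups alone (0.0788), among entries without an overlap (0.152), and without w12_CD 1 (0.083), w12_CD 2 (0.062), m12_CD 1 (0.0946), m12_WD 1 (0.0724) or m12_WD 2 (0.0778). The VC difference on the control diet was not shown to change with time. Its interaction was 1.38 for Fth1 (edgeR adjusted p = 0.231), 1.69 for Ftl1 (0.156), 1.52 for Gclc (0.287) and 2.68 for Osgin1 (0.262), none was called by DESeq2 or limma-voom either, and 0.143% of all tested genes were called.

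Other genes of the same pathways were counted over 5 lists. For m12_WD against m12_CD, 10 of the 19 tested NRF2 targets other than the 8 genes were called, 9 higher and 1 lower, with a median log2 change of 1.57. Over all tested genes 24.5% were called and 13.4% as higher, and of the 2023 tested entries without an overlap 364 were higher and 135 lower, with a median log2 change of 0.48. The 12 tested genes of heme synthesis, scavenging and breakdown had 7 higher and 0 lower (median 1.42), and the 13 of iron transport, sensing and hepcidin control 4 higher and 0 lower (median 1.08). The 13 other antioxidant enzymes had 4 higher and 1 lower (median 1.06), and the 7 NRF2 regulators 2 higher and 0 lower (median -0.01). With overlap classes scaled apart the calls were 4 higher for the NRF2 targets, 5 higher for heme, 4 higher for iron transport, 4 higher and 1 lower for antioxidant enzymes, and 1 higher for the regulators.

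Transferrin (Trf), which carries iron in blood, stood at 5386 ± 1705 CPM in m12_WD and 1296 ± 674 CPM in m12_CD, and was 3.31-fold higher (edgeR adjusted p = 0.000724). The ferroxidase ceruloplasmin (Cp, an entry with an overlap) was 3.04-fold higher and lipocalin 2 (Lcn2), which binds iron carriers of bacteria, 9.46-fold. The heme carrier hemopexin (Hpx) stood at 1200 ± 411 CPM in m12_WD and 154 ± 97.4 CPM in m12_CD, and was 6.13-fold higher. Haptoglobin (Hp), which binds free hemoglobin, was 4.08-fold higher. Hpx, Hp, Lcn2 and Cp are also acute-phase proteins.

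Among NRF2 targets, the epoxide hydrolase Ephx1 was 5.65-fold, the transporter Abcc3 3.97-fold and the peroxiredoxin Prdx1 3.96-fold higher in m12_WD. Nfe2l2, which encodes NRF2 itself, was 3.23-fold higher (edgeR adjusted p = 0.0396), a call kept in 5 of 15 settings. Sqstm1, an autophagy receptor that binds KEAP1, was 2.81-fold higher (an entry with an overlap). Glutathione peroxidase Gpx1 stood at 322 ± 88.0 CPM in m12_WD and 54.4 ± 13.5 CPM in m12_CD, and was 4.53-fold higher. Glutathione synthetase Gss, an entry with an overlap, was 7.12-fold lower.

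For m12_CD+VC against m12_CD, 5 of the 19 NRF2 targets were higher and 0 lower (median 1.60), where 5.22% of all tested genes were called and 4.1% as higher, with a median of 0.58 over tested entries without an overlap. They were led by 3 glutathione transferases, Gstp1 at 7.82-fold, Mgst1 at 4.28-fold and Gsta3 at 3.57-fold. Of the heme genes 2 were higher, Hpx at 3.28-fold and the hemopexin receptor Lrp1 at 2.58-fold, and 1 was lower, Hmox2 at 2.06-fold (an entry with an overlap), with a list median of 0.88. The Hmox2 call was kept in 3 of 14 settings, the Lrp1 call in 9 of 15 and the Hpx call in 12 of 15. Trf was the only iron transport gene called, at 2.58-fold (list median 0.83), and Gpx1 the only other antioxidant enzyme, at 3.40-fold (list median 1.20). None of the 7 NRF2 regulators was called by edgeR or DESeq2, 1 was called lower by limma-voom, and 4 had an unadjusted p under 0.05 with edgeR. The direction of those 4 and the share of all tested genes at that p are not given. With overlap classes scaled apart 2 NRF2 targets, 1 heme gene, 1 iron transport gene and 1 antioxidant enzyme were called, all higher. Trf then had an adjusted p of 0.114 and Gsta3 of 0.0676. Several of these calls were lost without the first m12_CD library, where the adjusted p was 0.1101 for Hpx, 0.0873 for Gstp1 and 0.0893 for Mgst1.

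For m12_WD+VC against m12_CD, the called genes were 2 of 19 NRF2 targets (Abcc3 at 3.05-fold and Ephx1 at 3.43-fold), 2 of 12 heme genes (Hpx at 3.57-fold and Hp at 2.36-fold), 1 of 13 iron transport genes (Lcn2 at 8.63-fold) and 1 of 7 regulators (Nfe2l1 at 4.37-fold), all higher, where 6% of all tested genes were called and 3.14% as higher. Of the 13 antioxidant enzymes Gpx1 was 2.93-fold higher and Gss 5.85-fold lower. Without the second m12_WD+VC library the adjusted p was 0.276 for Abcc3, 0.214 for Ephx1 and 0.166 for Nfe2l1, and with overlap classes scaled apart it was 0.115 for Hp.

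For m12_WD+VC against m12_CD+VC, edgeR called 1 gene of the 5 lists, malic enzyme Me1, 5.10-fold lower (edgeR adjusted p = 0.0425, a call kept in 4 of 13 settings), while the NRF2 targets had a list median of -1.001. For m12_WD+VC against m12_WD, 0 genes of the 5 lists were called by edgeR, DESeq2 or limma-voom, with 2 iron transport, 3 heme, 0 regulator, 1 NRF2 target and 1 antioxidant genes at an unadjusted p under 0.05. Their direction and the share of all tested genes at that p are not given, so these counts are not set against a background.

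**Figure D4:**
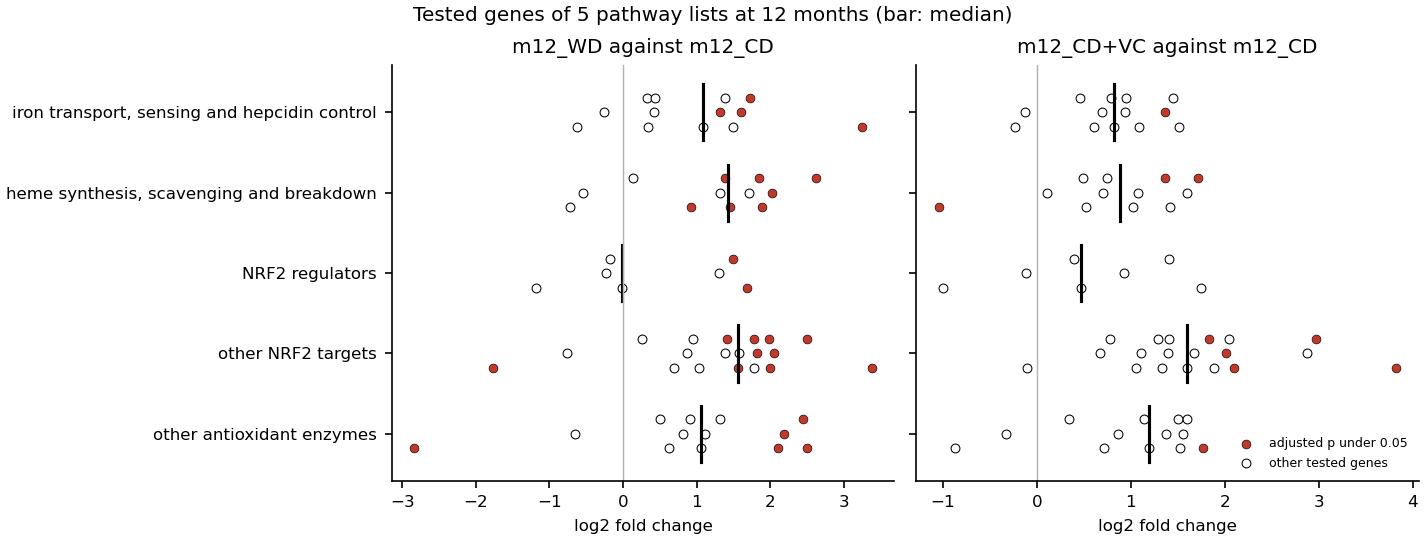
Log2 fold change of each tested gene of 5 pathway lists (circles) for m12_WD against m12_CD (left) and m12_CD+VC against m12_CD (right), with the list median as a bar and genes with an adjusted p under 0.05 filled. The medians lie above 0 except for the NRF2 regulators on the left, and both panels share the m12_CD libraries.

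Summed cell type markers were set beside the ferritins at 12 months, and some lists moved with them while others did not. The summed level of 14 macrophage markers, all present in the table, was 460 ± 137 CPM in m12_WD+VC, 735 ± 143 in m12_WD and 276 ± 65.2 in m12_CD+VC, against 113 ± 40.3 in m12_CD (SD, n = 3 each), and the w12 groups averaged 93.2 to 185 CPM. Macrophages recycle iron and are rich in ferritin. The 12 hepatocyte markers summed to 8858 ± 1722 CPM in m12_WD+VC, 15721 ± 5996 in m12_WD and 25040 ± 9678 in m12_CD+VC, against 7747 ± 4050 in m12_CD. The 7 stellate cell markers summed to 105 ± 34.8, 159 ± 9.84 and 105 ± 17.1 CPM in the same 3 groups, against 16.5 ± 9.84 CPM in m12_CD, while the 7 endothelial markers summed to 510 ± 28.8, 527 ± 87.3 and 576 ± 92.2 CPM, against 528 ± 74.3 CPM. Within that level sum Stab2, an entry with an overlap, was higher than in m12_CD. It was 4.31-fold higher in m12_WD and 4.00-fold in m12_WD+VC (edgeR adjusted p = 0.0038 and 0.0225), with no other endothelial marker called. The 6 cholangiocyte markers, with Cftr at 0, summed to 73.0 ± 26.8 CPM in m12_WD+VC, 153 ± 67.7 in m12_WD and 19.96 ± 10.8 in m12_CD+VC, against 4.16 ± 5.47 CPM in m12_CD. Most of the Western diet sums came from 1 gene, Spp1. It stood at 63.7 ± 21.1 CPM in m12_WD+VC and 131 ± 69.0 in m12_WD, against 2.43 ± 2.60 in m12_CD. The 6 lymphocyte markers in the table summed to 18.1 ± 14.4, 18.9 ± 11.1 and 12.5 ± 5.24 CPM in these 3 groups, against 2.42 ± 2.19 CPM in m12_CD. The part of these cell types in the ferritin levels was not tested, and in whole liver more cells of a type and more RNA per cell cannot be told apart.

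**Figure D5:**
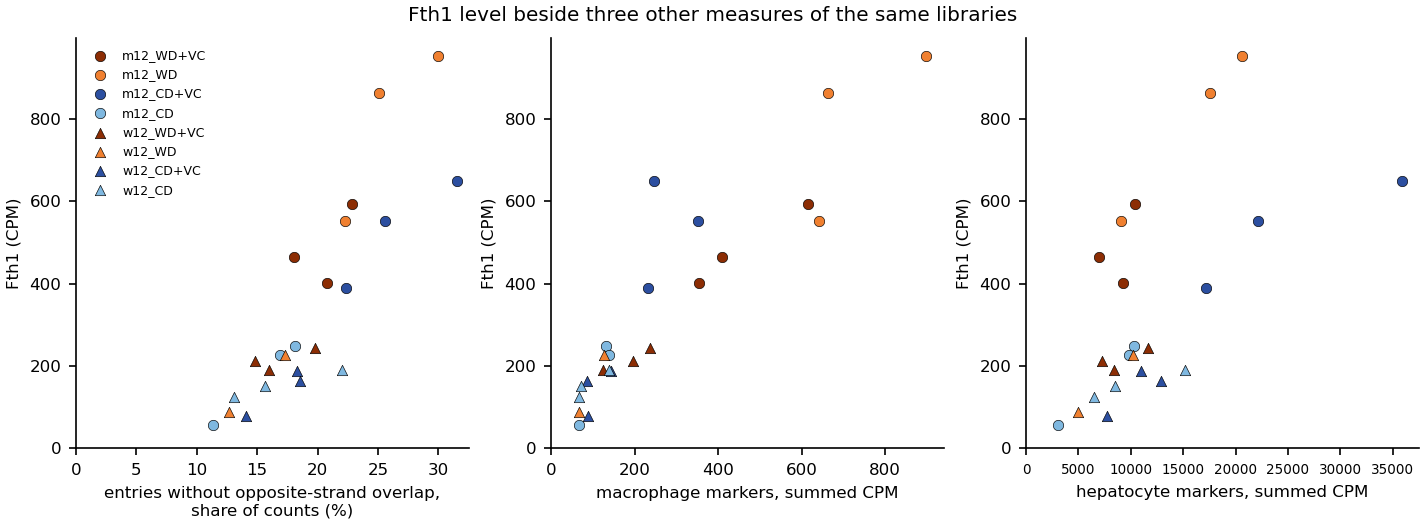
Fth1 level of 23 libraries (CPM) beside the share of counts in entries with no opposite-strand overlap (left, percent), the summed macrophage markers (middle, CPM) and the summed hepatocyte markers (right, CPM); circles are m12 and triangles w12 libraries. The m12_WD group has the highest mean Fth1, with libraries between 553 and 953 CPM, and its 3 libraries have the highest macrophage sums, and the m12_CD libraries sit near the w12 libraries in all 3 panels.

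The genes most like each of the 6 in log2 level over the 23 libraries were, for Fth1, Aldh2 (Pearson r = 0.927), Trf (0.927) and Cyp2a12 (0.919). For Ftl1 they were Myl6 (0.932), Trf (0.894) and Rpl32 (0.894). For Osgin1 they were Asgr2 (0.813), C3 (0.790) and Itih3 (0.787), which are made by hepatocytes. The closest genes reached lower values for Txnrd1 (Arhgef19 at 0.786, Sep15 at 0.782, Ttc23 at 0.750), Hamp (Msrb1 at 0.695, Ubxn1 at 0.694, Acsl5 at 0.694) and Gclc (Anxa5 at 0.690, Map4k4 at 0.675, Pgrmc1 at 0.671). These libraries share groups, depth and composition, so the values only describe this data set.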

How the data were processed

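Per the labels' protocols, rRNA-depleted liver RNA went into TruSeq libraries for a HiSeq2500. Trimmomatic 0.38, HISAT2 2.1.0, HTSeq 0.11.2 and mm10 were used, per the submitters' processing notes; no source used here states how strand was counted or on which annotation. The authors deposited raw counts per gene, used for all tests, and log2 values per library, each checked against log2(1 + count / size factor), within 1e-06. Symbols were placed on GENCODE M21 (23336 by symbol, 659 by synonym).

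One edgeR 4.0.16 quasi-likelihood model with 8 groups (R 4.3.3, TMM scaling, expression filter) was fitted to all 24 libraries, with Benjamini-Hochberg adjustment over 4198 genes and a threshold of 0.05, for 18 comparisons; the script was tested on simulated data. Levels (CPM) are counts scaled to a library total of 1e+06. Fold changes are thus relative to TMM-scaled totals. SE and 95% intervals come from the fit, and ratios of low counts have exact intervals for counting error only. Alternatives were RLE and class-wise scaling, no filter, DESeq2 1.42.0, limma-voom (limma 3.58.1), smaller fits, a replicate block and leaving out each library; their use on the lists was chosen after seeing the data. Replicate numbers did not pair libraries. All 8 genes are named; folds are given where the unadjusted p was under 0.05, with intervals for some others, and up to 3 called genes per list with the smallest adjusted p. The genes and lists were chosen with earlier results of these data known. A few items are not reported here.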

Additional observations from a re-analysis of the deposited data

Results flagged for a closer look

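In 2 tests of a difference between effects, both ferritin chains passed. The log2 difference made by the Western diet at 12 months was smaller with vinyl chloride than without it, by -1.86 for Fth1 and -2.13 for Ftl1. In air, the log2 difference made by the Western diet was larger at 12 months than at 12 weeks, by 1.78 for Fth1 and 2.40 for Ftl1. The m12_WD and m12_CD libraries enter both tests. Without the third m12_WD+VC library the adjusted p of the first test was 0.0525 for Fth1 and 0.0521 for Ftl1, and without the second w12_WD library that of the second was 0.222 and 0.127 (edgeR). The Fth1 call was lost in 4 of 21 settings of the first test and 10 of 21 of the second, and the Ftl1 call in 1 of 20 of each.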

How the results depend on the processing

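For pairs of a gene and a comparison with an unadjusted p under 0.05 (40 pairs, 666 settings), no setting turned a direction, 76 ended a call and 19 made one. Of 17 called pairs, 5 held throughout: both ferritins for m12_WD against m12_CD and against w12_WD, and Ftl1 for m12_CD+VC against w12_CD+VC. With overlap classes scaled apart, 1 gene was called for each of m12_CD+VC against m12_CD (3 in the main fit), m12_WD+VC against m12_CD (2), diet by VC at 12 months (2) and diet by time (2). Without an expression filter the same 4 comparisons had 1, 1, 1 and 1, and m12_WD+VC against m12_CD+VC had 1 (Hamp; 0 in the main fit). DESeq2 called 1 for m12_WD+VC against m12_CD. limma-voom called 1 for m12_WD+VC against m12_CD+VC, 1 for m12_CD+VC against m12_CD and 2 for m12_WD+VC against w12_WD+VC (0 in the main fit). Fits of the compared groups alone called 1 for m12_WD+VC against m12_CD+VC, 1 for m12_CD+VC against m12_CD, 1 for m12_WD+VC against w12_WD+VC and 1 for diet by time. Among entries without an overlap, where Ftl1 is not tested, counts were 1 for m12_WD against m12_CD, 0 for m12_CD+VC against m12_CD, 1 for m12_WD+VC against m12_CD, 0 for diet by VC, 0 for m12_CD+VC against w12_CD+VC, 1 for m12_WD against w12_WD and 0 for diet by time. The share of all tested genes called is not given for most of these settings. It is also not given for the fits below with 1 library left out or with a replicate block. A loss of calls among these genes thus cannot be told from a loss over all genes. The causes were not tested.

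Leaving out 1 library gave 2 to 3 calls for m12_WD against m12_CD, 0 to 4 for m12_CD+VC against m12_CD, 0 to 1 for m12_WD+VC against m12_CD, 0 to 3 for diet by VC, 1 to 3 for m12_CD+VC against w12_CD+VC, 2 to 3 for m12_WD against w12_WD, and 0 to 3 for diet by time. The counts of 0 came without m12_CD 1, m12_CD+VC 1 or m12_CD+VC 2 for VC, without m12_CD 1 or m12_WD+VC 2 for the combination, without m12_WD+VC 3 for diet by VC, and without w12_WD 2 for diet by time. Over all genes, RLE moved the split of m12_WD against m12_CD calls to 915 higher and 253 lower, against 562 and 466 in the main fit, and class-wise scaling to 430 and 495; for m12_CD+VC against m12_CD these were 434 and 8, 172 and 47, and 73 and 33. RLE shifted the median log2 change of all genes by 0.390 and 0.410 in these comparisons, by 0.289 for m12_WD+VC against m12_CD and by -0.507 for diet by VC. With a replicate block, m12_CD+VC against m12_CD had 2 calls, and so did m12_CD+VC against w12_CD+VC, while m12_WD against w12_WD and diet by time had 3 each, the added one being Osgin1 (adjusted p 0.0433 and 0.0429, edgeR). Same-numbered libraries did not deviate together (median r 0.00697 over 77 pairs, and 3 of 23 libraries correlated best with their own number). For the iron transport list, the median of m12_WD against m12_CD was 0.07 among entries without an overlap, where fewer of its genes are tested, against 1.08. Depth limits Hmox1 and Nqo1 above all.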
